A study of Rattus norvegicus with 6 samples.

Results

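The genes described here encode cytosolic ribosomal proteins, protein components of the ribosomes that translate most cellular mRNA. They were chosen by name, as the entries of the deposited gene table called Rpl or Rps followed by a number and at most 1 letter, Rplp0 to Rplp2, or Rpsa, with the S6 kinase genes left out. The rule found 79 of 22536 entries, 30 named for the small subunit (40S) and 49 for the large subunit (60S), under 73 distinct gene names. No entry carried the names Rps9, Rps13, Rps14, Rps26, Rpl22, Rpl35a, Rpl37 or Rpl38, which the rule would also match. The members are therefore not a complete set of the cytosolic ribosomal proteins. The 79 entries lay on 20 chromosomes, 5 of them on X, and 4 names (Rps27a, Rpl21, Rps4x and Rpl7a) were carried by 10 entries at different loci. The study sequenced total RNA in 6 libraries, 3 from control animals and 3 from animals with painful diabetic neuropathy (PDN), all of them male rats. Its title concerns hyodeoxycholic acid, TLR4 and the dorsal root ganglion, and no library is labelled as treated with that bile acid. The labels name the tissue "sensory neuron". The sources used here do not give how diabetes was induced, the strain, the age, how long the disease lasted or whether ganglia were pooled.

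A ribosome is assembled in the nucleolus from ribosomal RNA and a fixed set of proteins, each present as a single copy in most ribosomes apart from the stalk proteins P1 and P2. The mRNAs of these proteins usually begin with a C followed by a run of pyrimidines (C or T bases in the gene), the TOP motif, through which mTORC1 and the protein Larp1 control their translation. In sensory neurons, ribosomes and ribosomal protein mRNAs are present in the cell body and also in axons, where local translation takes part in growth and in the response to injury.

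The bases around the RefSeq transcription start are printed for members the results turn on. Each window has 30 bases (GRCr8, 10 bases before and 20 bases from the start, coding strand, 5′ to 3′). Capitals mark the longest uninterrupted run of C and T that touches the 4 bases before the start or the first 5 bases from it, where that run has at least 5 bases; a run can continue upstream of the window. The abundant members Rplp1, Rpl10, Rps23, Rplp0 and Rps18 and the member Rpl12 have such a run:
Rplp1: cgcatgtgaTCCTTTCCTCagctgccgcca (chr8:71290853-71290882, minus strand)
Rpl10: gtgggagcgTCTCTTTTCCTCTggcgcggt (chrX:157205840-157205869, plus strand)
Rps23: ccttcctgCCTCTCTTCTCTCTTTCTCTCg (chr2:23814507-23814536, plus strand)
Rplp0: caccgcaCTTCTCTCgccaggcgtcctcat (chr12:46718371-46718400, minus strand)
Rps18: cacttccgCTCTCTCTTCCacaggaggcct (chr20:4933735-4933764, plus strand)
Rpl12: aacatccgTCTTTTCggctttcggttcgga (chr3:36661930-36661959, plus strand)
The members Rpsa, Rpl11 and Rps6 and the paralogs Rps27l and Rpl3l had no run of that length at the RefSeq start:
Rpsa: ccgcgctaccctggaacgggtccgtacggc (chr8:128728869-128728898, plus strand)
Rpl11: cttgaagcttgtttggtgctggggagcatc (chr5:153560783-153560812, minus strand)
Rps6: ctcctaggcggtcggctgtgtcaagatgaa (chr5:106420521-106420550, minus strand)
Rps27l: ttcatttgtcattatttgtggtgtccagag (chr8:76443648-76443677, plus strand)
Rpl3l: ctggtgcctggtggggaggtcccttcctaa (chr10:14258436-14258465, plus strand)

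RefSeq start regions were found for 56 of the 73 member names, 57 in all because Rps27a had a second start. A run of at least 5 pyrimidines at the start was present in 39 of 57 (68.4%), against 27.7% of all 33469 start regions in the table and 26.9% of the 10707 that belong to genes tested here. A run of at least 8 was present in 54.4% of member starts and in 8.20% of all starts. The median run was 9 bases in the members and 3 bases in all starts. The search did not ask for a C at the start base, and a counted run could lie wholly before it, as in Rpl23. These shares are therefore not counts of TOP motifs. Only the coding strand was searched, and no match says only that no such run touches the bases next to the annotated start. The windows of Rps6 and Rpl3l, for example, hold a run of at least 5 further from it. Members with a run had a median level of 75.4 FPKM (fragments per kilobase, scaled to the depth of the library; 41 entries), and those without one had a median of 47.8 FPKM (20 entries). Entries that share a name (Rpl21, Rps27a, Rps4x and Rpl7a) were all given the start found for that name, which is not the start of each copy. Both medians are descriptions of levels, without a test.

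The 6 libraries were alike in the number of genes that reached 1 FPKM, 13093 to 13286 per library. The constants that link the 2 deposited tables would stand for 51860000 to 62780000 fragments per library only if the deposited whole numbers counted fragments. Those whole numbers are not counts (explained further on), so the sequencing depth of the libraries is not known. Correlations of log2(FPKM + 1) between any 2 libraries lay between 0.976 and 0.985 across genes, which are not independent replicates. Sensory neuron markers were present, all 19 of 19 tested, with a summed level of 9675 to 11060 FPKM in control and 9533 to 10720 FPKM in PDN libraries. None of the 19 had an unadjusted p under 0.05 in limma, against 4.72% of all tested genes. Other cells were present too, so each library is a mixture, and in such bulk RNA fewer cells of a type and less RNA per cell cannot be told apart. Summed skeletal muscle markers were 630.8 FPKM in control 2 and 201.4 FPKM in PDN 3, against 3.03 to 38.0 FPKM in the other libraries. Summed macrophage markers ranged from 128.4 to 181.1 FPKM in control and from 88.9 to 132.1 FPKM in PDN libraries. Summed fibroblast markers ranged from 564.8 to 624 FPKM in control and from 504.6 to 553.8 FPKM in PDN libraries. The part of these cells in the ribosomal protein values was not tested.

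Ribosomal protein mRNAs were among the abundant mRNAs of the tissue, with a median of 67.8 FPKM over the tested members against 9.35 FPKM over all tested genes, and their levels per length differed widely from gene to gene. The 79 members took 1.95%, 2.18% and 1.92% of all FPKM in control 1, 2 and 3, and 1.95%, 2.32% and 1.99% in PDN 1, 2 and 3. The groups overlapped, with PDN 2 highest and control 3 lowest. The mean share was 2.02% ± 0.143 (SD, n = 3) in control and 2.09% ± 0.204 (SD, n = 3) in PDN, a difference of 0.0673 percentage points that an exact permutation test over the libraries did not separate (two-sided p = 0.5; the smallest p that 3 against 3 allows is 0.1). Without PDN 2 the difference was -0.05 percentage points, and without control 2 and PDN 3 it was 0.199.

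The highest level belonged to Rplp1, a stalk protein, at a mean of 353 FPKM over the 6 libraries. It was followed by Rpl10, which is added to the large subunit late in its assembly, at 314 FPKM, and by the small subunit gene Rps15a at 273 FPKM. Rplp0, the scaffold of the stalk, stood at 234.5 FPKM, Rpl3, which lies near the peptidyl transferase centre, at 213 FPKM, and Rpl41, one of the shortest proteins known, at 211 FPKM. Among small subunit genes the next were Rps23, which lies at the decoding centre, at 212 FPKM, the X-chromosomal Rps4x at 210.3 FPKM, Rps18 at 174 FPKM and Rps29 at 168 FPKM. The genes from Rpl3 to the X-chromosomal Rps4x lay closer together than the spread of any of them over libraries (Rpl3 alone spanned 183.3 to 241.5 FPKM), so their order is not resolved. In all, 30 entries had a mean of at least 100 FPKM, 10 of at least 200 FPKM and 14 of less than 20 FPKM.

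The lowest tested entry was Rpl10l, an intronless copy of Rpl10 known for its role in testis, with 0.424, 2.17 and 1.44 FPKM in control and 1.42, 1.58 and 0.515 FPKM in PDN libraries. Its mean of 1.26 FPKM compares with 314 FPKM for Rpl10 itself. Next came the chromosome 3 entry of Rpl21 at 5.81 FPKM, Rpl36a at 6.81 FPKM, and Rpl34 and Rpl37a, each at 14.5 FPKM. Proteins of the same particle therefore had listed levels that differed by more than an order of magnitude, and the listed levels depend on the transcript length used. Across the 77 tested members the Spearman correlation of level with the length implied by the tables (explained further on) was -0.131, a description over genes that share the same 6 libraries. The median level was 91.0 FPKM for the 42 members with an implied length under 2.5 kb, 66.5 FPKM for the 18 members of 2.5 to 4 kb and 47.0 FPKM for the 17 of 4 kb or more. For 43 members the implied length was the span of the locus. The correlation and the medians therefore do not show how levels depend on transcript length.

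**Figure D1:**
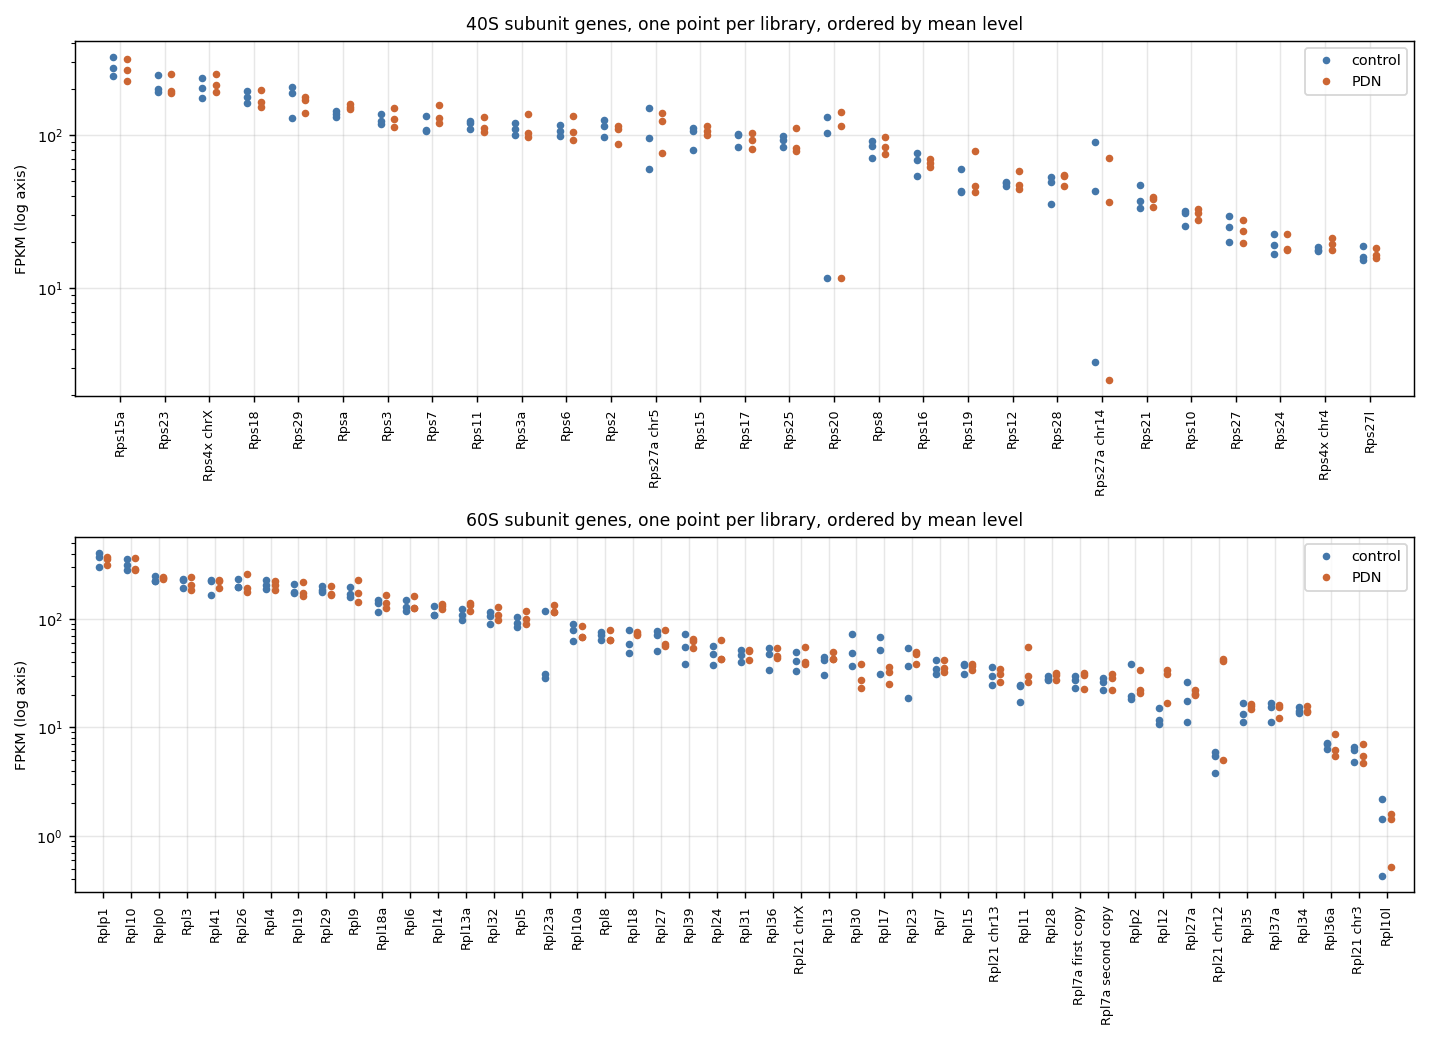
FPKM of 76 of the tested ribosomal protein genes in each library (log axis; 1 point per library, blue control, orange PDN), small subunit above and large subunit below, ordered by mean level. Most genes form tight clusters of 6 points, while Rps20 and the chromosome 14 entry of Rps27a spread over an order of magnitude or more in both groups. The chromosome 12 entry of Rpl21 spreads from 5.03 to 42.3 FPKM in PDN alone, and Rpl23a spreads less, in control alone.

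The comparison of PDN with control asks whether the mRNAs of the translation machinery differ in the neuropathy model. Of the 79 members, 77 reached 1 FPKM in at least 3 libraries and were tested with limma on log2(FPKM + 1) among 13282 genes. None of the 77 had an adjusted p under 0.05 in limma, where 0% of all genes did, and the smallest adjusted p among members was 0.811. At an unadjusted p under 0.05, 6 members had a higher level in PDN (Rpl12, Rpl11, Rpl23a, the chromosome 12 entry of Rpl21, Rpsa and Rpl13a; 1.83% of all tested genes did so) and 1 had a lower level (Rpl30; 2.89% of all tested genes). Over all tested genes these were 243 higher and 384 lower; with median-of-ratios scaling they were 312 and 307, and the members 7 and 1. The estimate was higher in PDN for 49 of 77 members (63.6%), against 43.4% of all tested genes. The median log2 fold change was 0.04 for the members, 0.02 for the 30 small subunit members and 0.06 for the 47 tested large subunit members, and -0.02 for all tested genes. These small shifts turned sign without control 3 (median -0.02, 32 members with a higher estimate) and without PDN 2 (median -0.05, 28 members). Without control 2 and PDN 3, the libraries with the highest summed muscle markers, the median was 0.12 and 72 members had a higher estimate. The share over all tested genes is not given for these settings.

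Most members differed between the groups by little, as did most of all tested genes. The middle 50% of the members' log2 fold changes lay between -0.03 and 0.11, and 67 of 77 lay within 0.25 of zero, while the extremes were -0.79 and 1.89. Over all tested genes the middle 50% lay between -0.08 and 0.05. Within 0.25 of zero lay 12227 of 13282 tested genes, a larger share than among the members. The median standard error was 0.135 and the median 95% interval, which is not adjusted, reached 0.317 to either side of the estimate. For a typical member a difference of that size or smaller could not be detected even without adjustment. After adjustment over all tested genes even an estimate of 1.01 (Rpl12) had a limma adjusted p of 0.811. In 3 members, Rpl12, Rpl11 and Rpsa, all PDN libraries lay above all control libraries (3.69% of all tested genes), and in 0 members did they all lie below (6.24% of all tested genes). The labels do not say more about how the libraries of a group relate than the count of rats, so the p-values measure only the spread between these libraries.

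The 2 deposited tables must be read together for these genes. Beside FPKM, the authors deposited a table of whole numbers, and the ratio of the whole number to FPKM, divided by a constant for each library, gives a length in kilobases for each gene and library, here called the implied length. For most genes that length changed little between libraries, and for 43 members it equalled the span of the locus in all 6. It varied by 1.5 times or more over the libraries in 10 of 77 members, against 2.76% of all tested genes. These were Rps20, Rps24, the chromosome 14 entry of Rps27a, Rpl11, Rpl12, Rpl18, the chromosome 12 entry of Rpl21, Rpl23, Rpl23a and Rpl30. Just inside the limit lay Rps24 at 1.57 times and just outside it Rpl17 at 1.36 times. The whole numbers are not counts and are not independent of FPKM, so they serve only as a second view.

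In most of these 10 genes the FPKM value moved from library to library while the whole number did not follow; the chromosome 14 entry of Rps27a, described with its other copy, moved in both. Rps20, a protein of the small subunit head (chromosome 5, 16697703 to 16707286 in the files' coordinates, whose build is not stated), had 103, 130.1 and 11.6 FPKM in control and 11.7, 142 and 115 FPKM in PDN libraries. Control 3 and PDN 1 were thus low and the other 4 libraries high, in both groups alike. The implied length was 8.18 kb in control 3 and 7.60 kb in PDN 1, against 0.837 to 0.871 kb in the other libraries. In ppm (parts per 1000000) of the library total, the whole number of Rps20 was 8.05, 9.98 and 8.57 in control and 8.07, 10.9 and 8.95 in PDN, with no library apart. Rps20 had a log2 fold change of 0.10 ± 1.15 (SE), the widest error of any member but the chromosome 14 entry of Rps27a (1.38).

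The same pattern met the members with the largest fold changes. Rpl23a, at the mouth of the exit tunnel where nascent chains leave the ribosome, had 28.5, 31.1 and 119 FPKM in control and 115, 134 and 117 FPKM in PDN. Control 3 lay among the PDN libraries, and its implied length of 1.16 kb was close to theirs (0.981 to 1.504 kb) while that of control 1 and 2 was 4.82 and 4.81 kb. Its log2 fold change was 1.34 ± 0.49 (SE; limma adjusted p = 0.999) in FPKM and 0.06 in the whole-number table. Without control 3 the log2 fold change was 1.996, with a limma adjusted p of 0.00286. Control 3 was the control that lay among the PDN libraries, so leaving it out separates the groups by itself. That p is no evidence of a difference.

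The chromosome 12 entry of Rpl21, a protein of the large subunit, had 5.48, 5.97 and 3.81 FPKM in control and 42.3, 41.4 and 5.03 FPKM in PDN. PDN 3 lay among the controls and shared their implied length (7.95 kb, with 6.66 to 8.01 kb in control), while PDN 1 and 2 had 0.837 and 0.929 kb. Its log2 fold change of 1.89 ± 0.71 (SE; limma adjusted p = 0.999) was the largest of any member in FPKM, and 0.01 in the whole-number table. Without PDN 3 the limma adjusted p was 0.00248, at a log2 fold change of 2.83. As PDN 3 was the PDN library that lay among the controls, leaving it out separates the groups by itself. That p is no evidence of a difference either.

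Rpl12, at the base of the stalk, had 15.2, 11.7 and 10.7 FPKM in control and 16.7, 33.8 and 30.8 FPKM in PDN libraries. PDN 1 lay just above the controls, and PDN 2 and 3 lay well above them. The log2 fold change was 1.01 ± 0.25 (SE; limma adjusted p = 0.811), and 0.28 in the whole-number table. The implied length was 5.73 to 6.51 kb in the controls and PDN 1, and 2.73 and 2.87 kb in PDN 2 and 3.

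Rpl11, which with Rpl5 and ribosomal RNA forms a particle that binds Mdm2 and so restrains the breakdown of p53, had 24.5, 24.2 and 17.2 FPKM in control. In PDN it had 54.7, 30.1 and 26.2 FPKM, each above every control, with PDN 1 far above the others. The log2 fold change was 0.67 ± 0.27 (SE; limma adjusted p = 0.999) and 0.12 in the whole-number table, and without PDN 1 the FPKM value was 0.36. In PDN 1 the implied length was 1.59 kb, against 3.30 to 4.20 kb in the other libraries. Its partner Rpl5, whose implied length did not vary, had 93.3 ± 10.3 FPKM (SD, n = 3) in control and 102 ± 13.9 FPKM (SD, n = 3) in PDN, a log2 difference of 0.13 with an adjusted p of 0.999 in limma.

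Rpl30, a small protein of the large subunit, had 48.4, 72.8 and 37.2 FPKM in control and 23.0, 38.4 and 27.5 FPKM in PDN, with PDN 2 inside the control range. Its locus in the table covers 231351 bp on chromosome 7, and its implied length ran from 33.6 to 84.6 kb. The log2 fold change was -0.79 ± 0.26 (SE; limma adjusted p = 0.999) in FPKM and -0.16 in the whole-number table. Rpl17, beside the exit tunnel, was the next lowest, with 52.0, 67.6 and 31.4 FPKM in control and 32.3, 36.3 and 25.1 FPKM in PDN. Its log2 fold change was -0.62 ± 0.27 (SE; limma adjusted p = 0.999) in FPKM and -0.33 in the whole-number table, and its groups overlapped. Without control 2 the FPKM value was -0.38, and without control 2 and PDN 3 it was -0.23 (-0.50 for Rpl30).

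In Rpl23, control 2 stood apart at 18.7 FPKM, with an implied length of 4.15 kb, while the other libraries had 36.7 to 54.0 FPKM and 1.58 to 1.75 kb. Rpl18 had the lowest level, 48.6 FPKM, and the longest implied length, 3.96 kb, in the same library. In Rps24 the libraries with the shorter implied length, control 3 and PDN 1 (4.89 and 4.93 kb), held the highest FPKM values, 22.6 and 22.7, against 16.9 to 19.2 FPKM in the other 4. What the authors' software did to assign fragments or lengths was not tested.

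**Figure D2:**
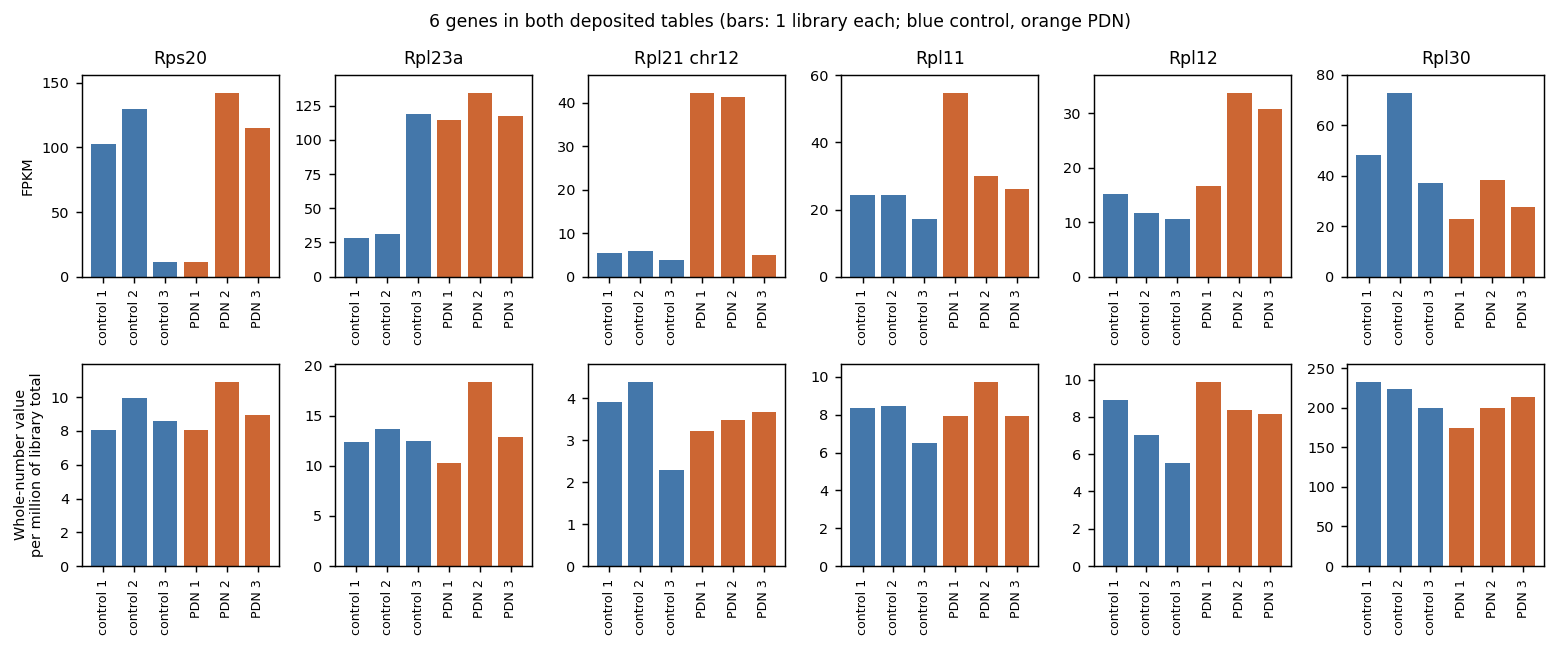
FPKM (top row) and the whole-number value in ppm of its library total (bottom row) for 6 members in each of the 6 libraries (blue control, orange PDN; each panel has its own axis from 0). In Rps20, 2 libraries drop to about 12 FPKM while the bars below them stay between 8.05 and 10.9.

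Over all tested members the whole-number table gave log2 fold changes from -0.33 to 0.28, a narrower range than FPKM. The fold changes of the 2 tables differed by more than 0.25 in 8 of 77 members, against 1.79% of all tested genes. By whole numbers, 1 member (Rpsa) had an unadjusted p under 0.05 and a higher level in PDN (2.13% of all tested genes), 0 had a lower level (2.69%), and 0 members had an adjusted p under 0.05 in limma (0.0151% of all tested genes).

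**Figure D3:**
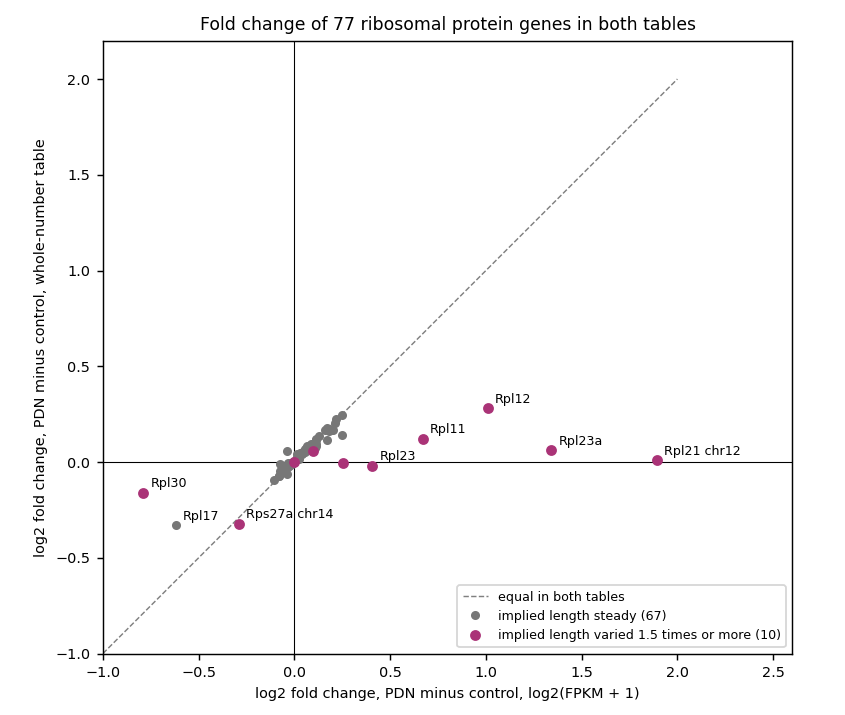
Log2 fold change of PDN over control for the 77 tested members, from FPKM on the horizontal axis and from the whole-number table on the vertical axis; the dashed line marks equal values. The 67 members of steady implied length lie along the line apart from Rpl17, and most of the 10 others lie near 0 on the vertical axis, with Rpl21 on chromosome 12 at 1.89 and 0.01.

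The split by implied length itself favours a narrower FPKM spread in the 67 members whose implied length was steady, so that spread is a description. The FPKM ratio of the highest to the lowest library was 1.42 in the median (1.12 to 5.12) and was under 2 in 62 of them, whereas it was 3.18 in the median for the 10 others (1.35 to 35.7). For the whole numbers the median ratio was 1.42 in the 67 members and 1.43 in the 10 others. Of these 67, 2 had a higher level in PDN at an unadjusted p under 0.05 (Rpsa and Rpl13a; 1.83% of all tested genes) and 0 a lower one (2.89% of all tested genes), and their median log2 fold change was 0.04.

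Rpsa, a small subunit protein also known as the laminin receptor precursor, had 138, 143 and 131 FPKM in control and 149, 160.4 and 152 FPKM in PDN libraries. Every PDN library lay above every control, by a small margin, and the implied length was 3.86 kb in all 6. The log2 fold change was 0.16 ± 0.065 (SE; 95% interval 0.01 to 0.31; limma adjusted p = 0.999), and 0.17 in the whole-number table. Rpl13a, which outside the ribosome takes part in the interferon-gamma-induced silencing of inflammatory mRNAs, had 98.4, 124 and 110 FPKM in control and 119, 140.0 and 135 FPKM in PDN. PDN 1 lay inside the control range. The log2 fold change was 0.25 ± 0.10 (SE; limma adjusted p = 0.999).

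The stalk genes other than Rpl12 lay close to their controls. Rplp0 had 231 ± 14.7 FPKM in control and 238 ± 6.17 FPKM in PDN (SD, n = 3 each). Rplp1 had 357 ± 54.2 FPKM in control and 349 ± 31.8 FPKM in PDN (SD, n = 3 each). Rplp2, listed far below its partner Rplp1, had 38.5, 18.1 and 19.5 FPKM in control and 33.5, 22.3 and 20.7 FPKM in PDN, with control 1 and PDN 1 the high libraries. For these 3 genes the log2 fold changes were 0.04, -0.03 and 0.06.

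At the decoding site and along the mRNA channel, the 5 genes Rps2, Rps3, Rps15, Rps23 and Rps28 had log2 fold changes from -0.11 to 0.18. Of these 5, 0 had an unadjusted p under 0.05 (4.72% of all tested genes). Rps2, which lies at the mRNA entry, was the lowest of them at -0.11 ± 0.13 (SE), with 112 ± 14.4 FPKM in control and 104 ± 14.3 FPKM in PDN (SD, n = 3 each). Rps6, the protein that S6 kinase phosphorylates downstream of mTORC1, had 107 ± 9.08 FPKM in control and 110.3 ± 21.2 FPKM in PDN (SD, n = 3 each). The transcript of Rps6 says nothing of that phosphorylation. Rps18 and Rps21 of the small subunit and Rpl29 of the large subunit were among the lower estimates, at log2 fold changes of -0.05, -0.07 and -0.08, each below its standard error.

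A further set of entries are genes in which mutation causes Diamond-Blackfan anaemia, a human failure of red cell production. Of these 16 tested genes, 1 had an unadjusted p under 0.05 in either direction (4.72% of all tested genes), namely Rpl11 with its varying implied length, and their median log2 fold change was 0.06. Rps19, the gene most often mutated in that disease, had 42.9, 59.7 and 42.6 FPKM in control and 42.5, 46.7 and 79.1 FPKM in PDN, so that PDN 3 alone stood above the rest. The 5 members whose locus is on X had log2 fold changes from -0.04 to 0.17, and none of the 5 had an unadjusted p under 0.05.

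Paralogs that replace a ribosomal protein in particular tissues were measured beside their parents. Rpl3l, the form of Rpl3 found in skeletal and cardiac muscle, had 0.0499, 2.35 and 0.113 FPKM in control and 0.267, 0.0768 and 0.582 FPKM in PDN. It was highest in control 2 and PDN 3, the libraries with the highest summed muscle markers, and it did not pass the filter. The part of muscle RNA in its level was not tested. Rpl39l, a copy of Rpl39 best known from testis, was listed at 0 in 4 libraries and at 0.240 and 0.139 FPKM in PDN 1 and 2, and it did not pass the filter either. Rpl39 itself had 55.3 ± 17.3 FPKM in control and 60.4 ± 6.25 FPKM in PDN (SD, n = 3 each). Rps27l, a p53-regulated relative of Rps27, had 16.8 ± 1.93 FPKM in control and 16.9 ± 1.32 FPKM in PDN (SD, n = 3 each), against 24.9 ± 4.63 and 23.8 ± 4.04 FPKM (SD, n = 3 each) for Rps27 itself.

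For 4 names the table held more than 1 locus, and the level of a single entry could not be read alone. Rps27a encodes ubiquitin fused to a ribosomal protein. Its chromosome 14 entry (113955222 to 113968629) had 90.1, 3.33 and 43.1 FPKM in control and 70.9, 36.8 and 2.52 FPKM in PDN. Its chromosome 5 entry, a locus of 545 bp (138628482 to 138629026), had 60.3, 150.5 and 95.01 FPKM in control and 76.1, 139 and 124 FPKM in PDN. The chromosome 14 entry was lowest in control 2 and PDN 3, where chromosome 5 took 97.8% and 98.0% of the sum, and chromosome 5 took least, 40.1%, in control 1. The sum was 150.4, 154 and 138 FPKM in control and 147, 175.5 and 127 FPKM in PDN, a ratio of 1.38 between the highest and the lowest library, and the groups were not separated by an exact permutation test (two-sided p = 1).

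The 4 entries of Rpl21 summed to 82.5 ± 15.9 FPKM in control and 110.5 ± 31.3 FPKM in PDN (SD, n = 3 each; exact permutation p = 0.3). The 2 entries of Rps4x summed to 222 ± 30.3 FPKM and 236 ± 31.2 FPKM (SD, n = 3 each; exact permutation p = 0.6), and the chromosome 4 entry held 6.92% to 9.30% of the sum. RefSeq gives Rps4x as a synonym of a pseudogene, Rps4x-ps9, and lists 1 protein-coding gene under each of the 4 names. The 2 entries of Rpl7a, both on chromosome 3, summed to 52.3 ± 6.75 FPKM and 55.6 ± 9.45 FPKM (SD, n = 3 each; exact permutation p = 0.6), and the first took 50.5% to 51.3% of the sum in every library. Whether reads were divided between the copies was not tested, and single entries under these names are uncertain.

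**Figure D4:**
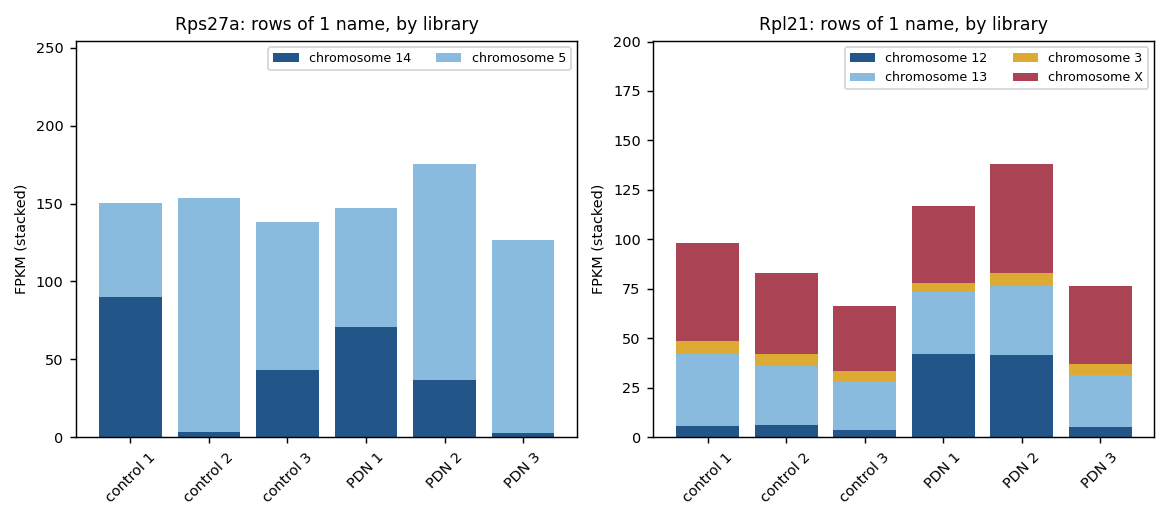
FPKM of the 2 Rps27a entries (left) and the 4 Rpl21 entries (right), stacked for each of the 6 libraries. The Rps27a total stays between 127 and 175.5 FPKM while the chromosome 14 part ranges from 2.52 to 90.1 FPKM.

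Libraries differed in the level of the whole set more than the groups did. A list score, the mean over the tested members of log2(FPKM + 1) centred on the 6 libraries, was 0.02, 0.03 and -0.18 in control 1, 2 and 3 and -0.02, 0.24 and -0.09 in PDN 1, 2 and 3. PDN 2 was the highest PDN library in 65 of 77 members, against 38.8% of all tested genes, and the highest of all 6 libraries in 44 members, against 16.8% of all tested genes. Control 3 was the lowest of all 6 libraries in 31 of 77 members, against 16.1% of all tested genes. Control 2 and PDN 2 were both the highest of their group in 42 members, against 18.5% of all tested genes. With the 67 steady members alone the score was 0.01, 0.10 and -0.16 in control and -0.06, 0.19 and -0.07 in PDN.

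Other lists of genes shared part of this order of libraries, and nuclear genes of the respiratory chain were highest in PDN 2 and lowest in control 3 as well, at 0.11 and -0.19. The mitochondrial ribosomal proteins, which translate the mitochondrial genome, scored -0.09 in control 3, 0.08 in control 2 and 0.06 in PDN 2. The 6 tested ribosomal proteins outside the name rule scored 0.31 in PDN 2, but 0.01 in control 3 and -0.28 in control 2. Sensory neuron markers had a different order, with 0.08 in control 1 and PDN 1, -0.10 in control 2 and -0.04 in PDN 2. What makes the ribosomal protein set high in PDN 2 and low in control 3 was not tested.

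**Figure D5:**
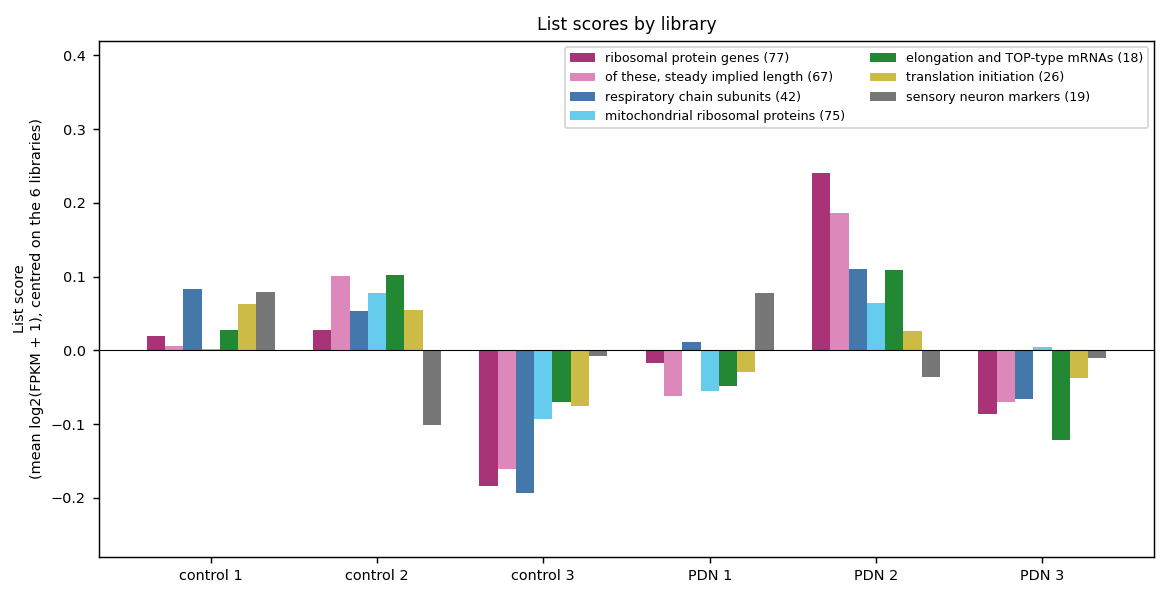
List scores (mean log2(FPKM + 1), centred on the 6 libraries) for the ribosomal protein genes and 6 other sets in each library. PDN 2 stands at 0.24 and control 3 at -0.18 for the ribosomal protein genes, and the respiratory chain genes share both ends.

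Of the 6 tested ribosomal proteins outside the name rule, none had an unadjusted p under 0.05, and their median log2 fold change was 0.02. Fau, a ubiquitin-like protein fused to a ribosomal protein, had 67.2, 18.5 and 77.1 FPKM in control and 92.9, 132 and 85.0 FPKM in PDN, so that all PDN libraries lay above all controls and control 2 was far below the rest. Its log2 fold change was 1.12 (limma adjusted p = 0.999). Rack1, a scaffold on the small subunit, had 128 ± 14.4 FPKM in control and 124 ± 13.0 FPKM in PDN (SD, n = 3 each). The 18 tested genes of elongation and TOP-type mRNAs had 0 with an unadjusted p under 0.05 in either direction and a median of -0.03. Of 26 tested initiation genes, 1 had a higher level at an unadjusted p under 0.05 (Eif6, an anti-association factor of the large subunit, 29.6 ± 3.03 FPKM against 35.5 ± 3.80 FPKM, SD, n = 3 each; limma adjusted p = 0.999) and 0 a lower level.

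Of 22 tested genes of mTORC1 and its control of these mRNAs, Ddit4, an inhibitor of mTORC1, had 21.5, 29.0 and 27.7 FPKM in control and 52.3, 30.7 and 33.0 FPKM in PDN (limma adjusted p = 0.999). In the same list Tbc1d7, a subunit of the tuberous sclerosis complex that restrains mTORC1, had 12.3 ± 1.00 FPKM in control and 9.75 ± 1.23 FPKM in PDN (SD, n = 3 each; limma adjusted p = 0.999). Of 47 ribosome biogenesis genes 1 was lower at an unadjusted p under 0.05 (Nip7, 8.24 ± 0.919 against 6.57 ± 0.697 FPKM, SD, n = 3 each). Of 17 genes of nascent chain targeting 1 was higher (Srp68, 15.7 ± 3.61 against 20.5 ± 0.189 FPKM), and of 11 tested p53 targets 1 was higher (Cdkn1a, the cell cycle inhibitor p21, 2.80 ± 0.351 against 4.07 ± 0.849 FPKM, SD, n = 3 each). None of the 20 cytosolic aminoacyl-tRNA synthetase genes, the 14 rescue genes and the 75 mitochondrial ribosomal protein genes had an unadjusted p under 0.05, and 2 of 42 respiratory chain genes were higher (Ndufa11 and Uqcr10). Beside these list counts, 1.83% of all tested genes were higher and 2.89% lower at an unadjusted p under 0.05. No gene of these lists had an adjusted p under 0.05 in limma.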

How the data were processed

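The members, the gene lists and the tests were chosen with earlier results of these data known. RNA was extracted with Trizol and strand-specific libraries were made from 1 µg of total RNA per sample, per the labels' protocols. The authors deposited FPKM per gene, fragments per kilobase, already normalized for length and depth. The authors also deposited a table of whole numbers named for read counts, used here as a score, and how they made it is not given. It is no count, since for 54.5% to 54.9% of the genes above 1000 it equalled FPKM times the locus span times a constant of the library (within a relative tolerance of 0.001) and exceeded that product in none. The sources used here do not name the aligner, quantifier, genome build or annotation. All columns of per-sample values could be assigned to a library by its label.

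Genes with FPKM of at least 1 in at least 3 of 6 libraries were compared with limma 3.58.1 (R 4.3.3) on log2(FPKM + 1), PDN against control, with an intensity trend and Benjamini-Hochberg adjustment over 13282 genes. A fold change on this scale understates that of low genes. Single values were compared with exact permutation tests (python 3.11.15, scipy 1.17.1), and the fit was tested on simulated data. Read depth per gene is unknown, so no counting interval was given. Sequences were read from RefSeq GRCr8 by symbol, apart from the files' own coordinates. Members named with values are the most and least abundant, those with the smallest p or the largest fold change in each direction, the paralogs with their parents, the untested members and Rps6, Rpl5, Rpl11, Rps4x, Rplp0, Rplp1, Rplp2, Rpsa and Rps27a. Rps20, Rpl23, Rpl18, Rps24 and Rps19 are named too where the implied length or a library stood apart, some chosen after their values were seen. Alternatives covered the pseudocount (0.1), the filter, the scaling, the table, the spread estimate, a replicate block and the libraries left out. The values of some genes are not reported here.

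The 12 marker lists had no gene with an adjusted p under 0.05 in limma. At an unadjusted p under 0.05 they had the following numbers higher and lower in PDN, out of the genes tested. Neurons and glia had 0 and 0 of 19 sensory neuron, 0 and 1 of 14 Schwann cell and 0 and 3 of 11 satellite glia genes. Stromal and vascular lists had 0 and 4 of 11 fibroblast, 1 and 2 of 11 endothelial and 0 and 2 of 10 pericyte and smooth muscle genes. Blood and immune lists had 0 and 5 of 11 macrophage, 0 and 0 of 1 T and B cell and 0 and 2 of 4 red blood cell genes. The remaining lists had 0 and 0 of 10 skeletal muscle, 1 and 0 of 3 oligodendrocyte and 0 and 0 of 2 adipocyte genes. Over all tested genes 1.83% were higher and 2.89% lower. Olig2, Retn and Lep were listed at 0 in all 6 libraries.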

Additional observations from a re-analysis of the deposited data

How the results depend on the processing

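At an unadjusted p under 0.05 the 6 higher and 1 lower members became 2 and 0 without a filter, 1 and 0 in the whole-number table, and 2 and 0 among the members of steady implied length (an alternative chosen after seeing the data). A robust prior left 3 higher, a filter of 5 FPKM gave 2 lower, and leaving out control 2 and PDN 3 together gave 9 higher and 0 lower. Groups without overlap numbered 3, and 1, 1 and 15 in the whole-number table, in the steady members and without control 2 and PDN 3. Groups of fewer libraries overlap less often whatever the gene, and the share over all tested genes is not given for these settings. The counts with libraries left out, here and below, therefore cannot be set against the 3. Leaving out 1 library gave 2 to 5 higher (2 without control 3 or PDN 2, 3 without PDN 1 or PDN 3), 0 to 2 lower (2 without control 3, 0 without PDN 1), 28 to 65 with a higher estimate, and 6 to 9 without overlap. An adjusted p under 0.05 in limma was reached by 0 members, and by 1 without control 3 (Rpl23a), without PDN 3, or without control 2 and PDN 3 (the chromosome 12 entry of Rpl21, adjusted p = 0.0032). For Rpl23a control 3, and for Rpl21 PDN 3, was the library that lay among the other group. These adjusted p-values are therefore no evidence of a difference. With 1 library left out the medians ranged from -0.045 to 0.093 for all members, from -0.073 to 0.10 for the small subunit (-0.03 without control 3) and from -0.023 to 0.13 for the large subunit, and the difference in share from -0.050 to 0.15 percentage points. Without control 2 and PDN 3 the log2 fold changes of Rpl29, Rps21 and Rps18 were 0.0014, 0.13 and 0.035. With 1 library left out, Rps2 ranged from -0.21 to 0.011, Rps21 from -0.18 to 0.066, Rps18 from -0.16 to 0.028 and the chromosome 14 entry of Rps27a from -1.58 to 1.01. The cause was not tested.

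Scaling by median of ratios or by the upper quartile gave 54 members with a higher estimate and 7 higher and 1 lower at an unadjusted p under 0.05. Over all genes it moved the split of such calls from 243 higher and 384 lower to 312 and 307, and to 296 and 318. Same-numbered libraries had correlations of their deviations of 0.171, -0.12 and -0.0865, and control 2 correlated best with PDN 3 (0.269). With 3 libraries per group and genes that are not independent, these values cannot show whether the numbers paired the libraries. A fit with the replicate number as a block gave 9 higher and 2 lower members and 0 adjusted. With 3 libraries per group and no counts, small differences were not detectable.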

Other observations

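Among the genes around the ribosome, 1 biogenesis factor was listed at or near 0 in particular libraries. Ebna1bp2, which takes part in the assembly of the large subunit, had 5.29, 0.269 and 0 FPKM in control and 4.86, 4.67 and 3.89 FPKM in PDN. Whether a value listed at 0 is a failed estimate was not tested. Its implied length stayed between 4.26 and 4.32 kb in the libraries with a value, and its whole-number values were 73 in control 2 and 0 in control 3 against 908 to 1339 in the others. Srp68, a subunit of the signal recognition particle, had 15.5 and 12.2 FPKM in control 1 and 2 with implied lengths of 93.7 and 98.6 kb, and 19.4 to 20.7 FPKM in the other libraries with 64.5 to 65.1 kb. Both genes were singled out after their values were seen.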
